A study of Mus musculus with 24 samples.

Results

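The genes described here encode complexes I, II and III of the mitochondrial respiratory chain, in polarizing mouse CD4 T cells. Members were taken by gene name, as every symbol starting with mt-Nd, mt-Cyb, mt-Cytb, Nduf or Uqcr together with Sdha, Sdhb, Sdhc and Sdhd, without pseudogene symbols and with at least 1 TPM (an abundance corrected for transcript length and scaled to the same total of 1000000 transcripts in each library) in at least 3 of the 24 libraries. The names took 69 symbols, of which Ndufab1-ps, Uqcrh-ps1 and Uqcrh-ps2 were dropped as pseudogenes, and the other 66 all passed the minimum, out of 35492 symbols in the table and 15720 that passed the same minimum. Of the 66 members, 8 are transcribed from mitochondrial DNA (mt-Nd1 to mt-Nd6, mt-Nd4l and mt-Cytb) and 58 from nuclear chromosomes: 7 core subunits of complex I, 31 accessory subunits, 8 assembly factors (Ndufaf), 4 subunits of complex II (Sdh) and 8 of complex III (Uqcr).

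Naive CD4 T cells, sorted as CD4+ CD62L+ from spleen and lymph nodes of wild-type C57BL/6J mice matched by age and sex, were plated on anti-CD3 and anti-CD28 and transfected for 6 h with 2'3'-cGAMP, the second messenger sensed by STING, or with a control dinucleotide. The medium was then exchanged for IL-12 with anti-IL-4 (TH1 cells) or TGF-β and IL-4 with anti-IFN-γ (TH9 cells), and RNA was taken at 16 h and 48 h. The 8 labelled groups, TH1 or TH9, 16h or 48h, control or cGAMP, hold 3 libraries each, described as separate experiments. All groups share the T cell receptor stimulation and the lipid transfection, no untransfected cells were analysed here, and the cGAMP dose is given per millilitre in the labels and per litre in the study's methods.

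The labels were at odds with genes that mark the subsets and the treatment. Il9, the TH9 cytokine, exceeded Tbx21, the TH1 transcription factor, in 4 of 12 TH1 libraries but in only 8 of 12 TH9 libraries. In both subsets and at both times, the libraries that went against their label were control replicate 3 and cGAMP replicate 1. Irf7, which the paper reports as raised by cGAMP, did not follow the treatment labels throughout. It stood at 77.6 TPM in TH1 16h control replicate 2 and at 2.25 TPM in TH9 16h cGAMP replicate 2. Other libraries went with their label, as at 1.51 TPM in TH9 16h control replicate 1 and 115 TPM in TH9 16h cGAMP replicate 3. No marker was used to check the labels of time, so these may be wrong as well. No library was moved, so each direction below is between libraries as labelled, and a labelled group may mix subsets and treatments. Which labels are right was not settled, which left no set of undoubted libraries for a second run. Summed markers of T cells were at 178 to 1536 TPM in every library, against at most 10.1 TPM for CD8 T cell, B cell, myeloid, NK or erythroid markers, with Pax5, Lyz2, Adgre1, Csf1r, Ncr1, Klrb1c and Hbb-bt under 1 TPM throughout. A predicted gene, Gm10800, took 0.0933% to 39.9% of all TPM and Lars2, the mitochondrial leucyl-tRNA synthetase, 0.333% to 33.8%, so that the total left for other genes differed widely between libraries. Depth behind each value is unknown, as TPM carry no counts of reads.

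Complex I accepts electrons from NADH and complex II from succinate. Both pass them by ubiquinone to complex III, which reduces cytochrome c, and complexes I and III pump protons across the inner membrane as they do so. Complexes I and III are built from subunits of both genomes, which must be made in proportion, while complex II is wholly nuclear. Activated T cells build up respiratory capacity as they leave the naive state.

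Sequence decides how far the mitochondrial members can be measured, because nuclear copies of mitochondrial DNA lie in the annotation as genes. The first 60 bases of mt-Nd3 (GRCm38, chrM:9459-9518, plus strand, the start of the coding sequence) and of the predicted gene Gm28438 (chr1:24613060-24613119, minus strand), read from GENCODE transcripts, are shown because they hold the single base that differs over the 345 bases compared. The capital marks that base, T3C, with positions counted from 1 at the first base of mt-Nd3.
mt-Nd3: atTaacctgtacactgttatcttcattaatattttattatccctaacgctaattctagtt
Gm28438: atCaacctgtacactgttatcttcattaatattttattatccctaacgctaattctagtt

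Over these 345 bases, the whole of Gm28438, 1 differed, and mt-Nd3, at 348 bases, runs 3 bases further. The pair shared 98.1% of the 31-base words of mt-Nd3, and the estimated abundance moved between the 2 symbols from library to library. Gm28438 exceeded mt-Nd3 in 19 of 24 libraries. The share listed as mt-Nd3, out of the sum of both, had a median of 31%, with 99.9999% in TH9 48h control replicate 3 and 5.73e-07% in TH9 48h cGAMP replicate 3, where mt-Nd3 stood at 8.61e-07 TPM. The summed level of both ranged from 150.2 to 5592 TPM. Values of mt-Nd3 alone are therefore uncertain, and the ratio of mitochondrial to nuclear members is given with and without it.

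The copies were not all alike in this respect. mt-Nd4l was identical to Gm10222 over 294 bases, yet Gm10222 was listed at 0 in every library and mt-Nd4l took the whole value. mt-Nd4 shared 62.8% of its 31-base words with Gm28439, which reached at most 3.57 TPM. mt-Nd6 lies on the opposite strand to the other mitochondrial members and overlaps the end of mt-Nd5. The kit marks strand, but the strand setting of the abundance estimate is not given in the sources used here. Of the nuclear members, Ndufaf2 alone shared over 50% of its words with another gene, B230220B15Rik, which has no row in the table. In all, 22 of the 66 members shared 10% or more.

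The second set of sequences is shown because nuclear respiratory genes are known to be reached through short promoter motifs, among them those of NRF1, of the ETS factor GABPA and of YY1. The RefSeq table (GRCm38.p6) held a window from 250 bases before to 50 bases after the start for 48 of the 58 nuclear members, 50 windows in all. The letters GCGCATGCG (NRF1), CCGGAAG (ETS) and AAGATGGC (YY1) were searched on both strands. Capitals mark the matches in Ndufaf4 (chr4:24897933-24898082, plus strand, from 150 bases to 1 base before the start), in Uqcr11 (chr10:80406802-80406921, minus strand) and Ndufs3 (chr2:90904702-90904821, minus strand), both from 100 bases before to 20 bases after the start, and in Ndufs7 (chr10:80249461-80249490, plus strand, bases 13 to 42 from the RefSeq start).
Ndufaf4: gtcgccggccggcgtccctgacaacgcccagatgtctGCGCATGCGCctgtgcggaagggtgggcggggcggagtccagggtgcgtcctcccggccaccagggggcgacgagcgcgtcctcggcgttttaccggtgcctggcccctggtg
Uqcr11: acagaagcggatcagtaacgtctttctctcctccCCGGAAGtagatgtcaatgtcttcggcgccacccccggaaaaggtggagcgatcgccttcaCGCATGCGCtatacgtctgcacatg
Ndufs3: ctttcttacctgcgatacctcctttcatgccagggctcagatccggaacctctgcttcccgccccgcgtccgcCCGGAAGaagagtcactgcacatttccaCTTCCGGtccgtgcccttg
Ndufs7: aaggccgaggccAAGATGGCggcgctggcg

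The NRF1 letters stood in 6 of 50 windows (12%), those of Ndufa11, Ndufa8, Ndufaf4, Ndufaf5, Uqcr11 and Uqcrc1, against 1.75% of all 32851 windows. The ETS letters stood in 10 (20% against 8.86%), Ndufs3 holding them once on each strand and Ndufaf4 not at all, and the YY1 letters in 8 (16% against 2.75%). All 8 of these windows held the YY1 letters after the start, as did 373 of the 903 windows with them among all promoters. GGGCGG (SP1) was found in 48% against 35.7%, CCAAT (NFY) in 36% against 37.4% and TCAAGGTCA (ESRRA) in 2% against 0.423%. Uqcr11 held both the NRF1 and the ETS letters. In Ndufaf4 the NRF1 letters matched on both strands, shifted by a base, and the SP1 letters, not marked, also occur. These are matches of letters and not measured binding.

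Members were among the steadily detected genes of these cells. Of the 66, 63 reached 1 TPM in all 24 libraries, while 7918 of the 15720 tested symbols did, and the median of the members' mean TPM was 69.7 against 6.6 over all tested symbols. The exceptions were mt-Nd3 and Ndufa11, each below 1 TPM in a single library, and Ndufa4l2, a relative of Ndufa4 known to be induced by hypoxia, which reached 1 TPM in 6 libraries.

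Mitochondrial transcripts stood far above the nuclear ones. mt-Nd1, which encodes a membrane subunit of complex I, had the highest mean, at 3935 TPM (867 to 9890). It was followed by mt-Nd2 at 2766 TPM, mt-Cytb (cytochrome b, the sole complex III subunit made in the mitochondrion) at 1778, mt-Nd4 at 1729, mt-Nd6 at 1585, mt-Nd4l at 1552, mt-Nd5 at 1005 and mt-Nd3 at 738 TPM. Neighbours in this order overlapped over the 24 libraries.

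Among nuclear members the highest means belonged to complex III subunits and Ndufa4, a subunit first assigned to complex I and later placed in complex IV. Uqcrb had a mean of 203 TPM (40.8 to 469), Uqcrh, the hinge protein, 188 TPM (30.2 to 386) and Ndufa4 187 TPM (41.1 to 442). The core proteins Uqcrc2 and Uqcrc1 stood at 136 and 76.7 TPM, Uqcr10 at 103, Uqcr11 at 78.5, Uqcrq at 69.4 and Uqcrfs1, the Rieske iron-sulfur protein that passes electrons to cytochrome c1, at 49.3 TPM.

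In complex I the core subunits, which hold the flavin and the iron-sulfur clusters, had means from 33.7 TPM (Ndufs7) to 104 TPM (Ndufv2). Ndufv1, which binds NADH, stood at 35.9 TPM, Ndufs8 at 38.7, Ndufs1 at 53.5 and Ndufs3 at 78.5 TPM. Accessory subunits spanned from 0.573 TPM for Ndufa4l2, 4.34 TPM for Ndufa11 and 31.4 TPM for Ndufa2 up to 123 TPM for Ndufa10, 136 TPM for Ndufab1 (the mitochondrial acyl carrier protein) and 187 TPM for Ndufa4. The median over the 31 accessory subunits was 69.9 TPM.

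Complex II subunits were close together. Sdha, the flavoprotein that oxidizes succinate, stood at 79.1 TPM, Sdhb, the iron-sulfur subunit, at 64.2, and the membrane anchors Sdhd and Sdhc at 62.7 and 38.3 TPM. Assembly factors, which help build complex I and are not part of the finished enzyme, were lowest, from 5.57 TPM (Ndufaf7) and 9.05 TPM (Ndufaf3) to 18.3 TPM (Ndufaf4) and 21.2 TPM (Ndufaf2).

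Summed over the 8 mitochondrial members, TPM ranged from 3457 to 38968 (median 11963), or 0.346% to 3.90% of a library. Summed over the 58 nuclear members they ranged from 736 to 7487 (median 3819). Both sums were lowest in TH9 48h control replicate 2, in which Gm10800 took 39.9% of TPM and 8923 symbols reached 1 TPM, the fewest of any library. The plot of summed TPM by library shows how far libraries of 1 label lay apart.

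**Figure D1:**
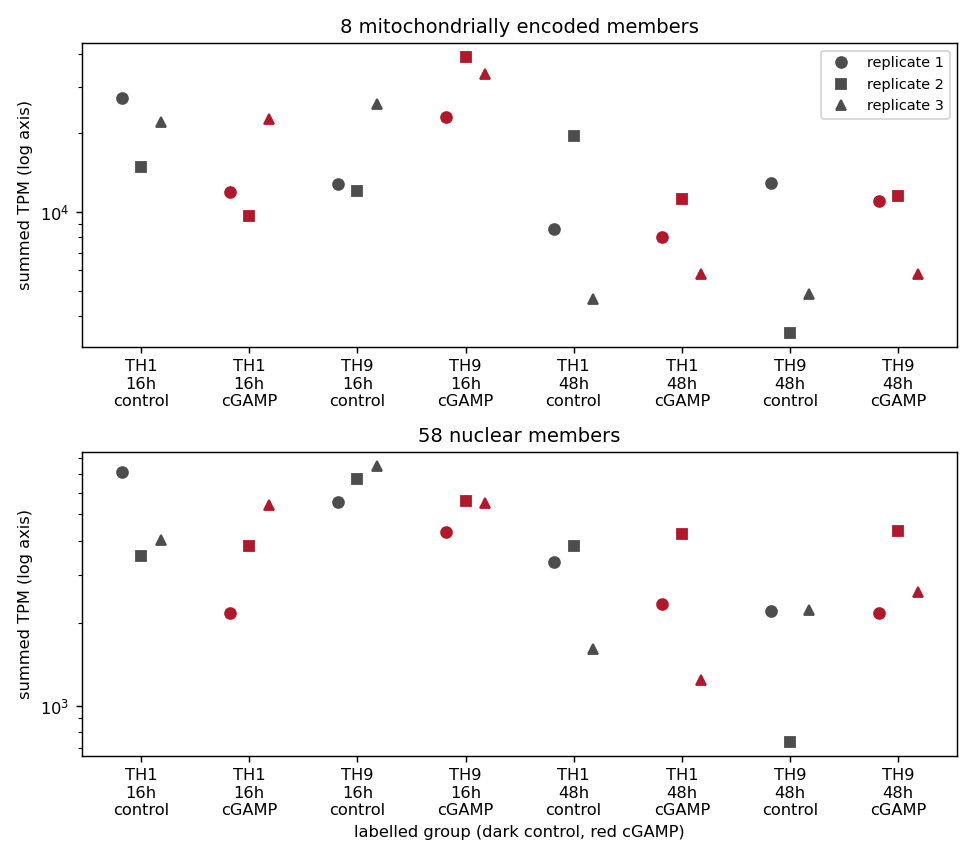
Summed TPM (log axis) of the 8 mitochondrial members (top) and the 58 nuclear members (bottom) in each of the 24 libraries, by labelled group; dark points are control, red are cGAMP, and the shape gives the replicate number. Mitochondrial sums run from 3457 to 38968 TPM and nuclear sums from 736 to 7487 TPM, with both minima in TH9 48h control replicate 2.

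Members were first compared between libraries labelled 48 h and 16 h, averaged over subsets and treatments, as the study sampled early and late polarization. The labels of time were not checked, so either group may mix both times. In TPM as deposited, 64 of 66 members fell and none rose (limma on log2(TPM + 1), Benjamini-Hochberg adjusted p under 0.05 over all 15720 genes), but 64.9% of all tested genes were called too, 10141 lower and 57 higher (64.5% lower). The median log2 fold change was -1.28 for mitochondrial members, -1.02 for nuclear members and -0.81 for all tested genes. All 7 core subunits, all 8 assembly factors, all 8 complex III subunits, all 4 complex II subunits, all 8 mitochondrial members and 29 of 31 accessory subunits were called lower. The 2 not called were Ndufb11 (log2 fold change -0.69, adjusted p = 0.0540) and Ndufv3 (-0.16, adjusted p = 0.744), both accessory subunits. In bulk RNA, fewer cells of a type and less RNA per cell cannot be told apart.

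The member with the smallest p was Ndufaf4, an assembly factor of complex I (chr4:24898083-24905001, plus strand, GRCm38). At 16 h it lay between 2.66 and 59.9 TPM (median 28.2) and at 48 h between 1.09 and 25.6 TPM (median 5.84), over 12 libraries each. The 2 labelled times overlapped, through 25.6 TPM in TH1 48h cGAMP replicate 2 and 2.66 TPM in TH1 16h cGAMP replicate 2. The next highest value in libraries labelled 48 h was 9.73 TPM. The log2 fold change was -1.98 (SE 0.34, adjusted p = 8.37e-05 by limma).

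Ndufs1, the largest core subunit (chr1:63143596-63176833, minus strand), came next. Its levels went from 34.0 to 97.4 TPM (median 76) at 16 h and from 13.5 to 56.5 TPM (median 35.1) at 48 h, with a log2 fold change of -1.16 (SE 0.21, adjusted p = 0.000108 by limma). mt-Nd5, a proton-pumping subunit (chrM:11742-13565, plus strand), went from 796 to 2614 TPM (median 1325) at 16 h and from 234 to 1236 TPM (median 532) at 48 h, with a log2 fold change of -1.22 (SE 0.25, adjusted p = 0.000353 by limma). The sum of mt-Nd3 and Gm28438, which no split between the copies can move, had a median of 2920 TPM at 16 h and 1122 TPM at 48 h.

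These calls did not hold under every scaling. The 20 most abundant symbols that are not members took 15.2% to 69.2% of TPM (median 30.4%) at 16 h and 48.7% to 89.7% (median 64.7%) at 48 h, which moved with the fall. With TPM rescaled to the total without them, no member was called (8 of 66 at an unadjusted p under 0.05, smallest adjusted p 0.0559 for Ndufa4l2, 2.43% of all genes called), and with upper-quartile scaling none was called either (7 of 66 unadjusted, smallest adjusted p 0.112 for Ndufv3, 1.87% of all genes). The median over all genes then lay at -0.052 and 0.025 in place of -0.81. Without Lars2 and Gm10800 alone, 61 members were still called, beside 54.3% of all genes.

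Under all 4 scalings the median of the mitochondrial members lay below that of all tested genes, by a distance that shrank with the scaling. It lay 0.46 under it in TPM as deposited, 0.40 under it without Lars2 and Gm10800, 0.23 under it without the 20 symbols and 0.16 under it with upper-quartile scaling (log2). For nuclear members the same distance went from 0.21 under to 0.047 above. mt-Nd6 turned from -1.04 to 0.094 with upper-quartile scaling, and 36 of 58 nuclear members then lay above 0. These distances have no test, and they were not alike in each subset: relative to all genes the mitochondrial members were at -0.55 in TH1 control, -0.16 in TH1 cGAMP, 0.057 in TH9 control and -1.21 in TH9 cGAMP. The plot of fold changes under 4 scalings shows the shift of all members together.

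**Figure D2:**
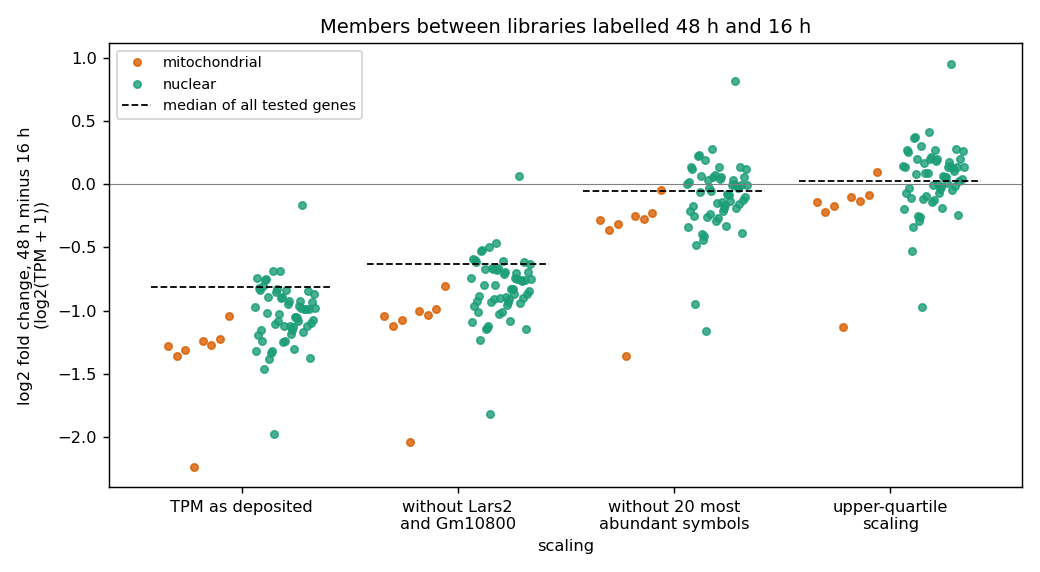
Log2 fold change, 48 h minus 16 h, on the log2(TPM + 1) scale, for the 8 mitochondrial members (orange) and the 58 nuclear members (green) under 4 scalings; dashes give the median of all tested genes. All 66 members lie below 0 in TPM as deposited, 65 without Lars2 and Gm10800, 45 without the 20 most abundant symbols and 29 with upper-quartile scaling.

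Treatment was then compared within each subset and time, the question of the study being what STING activation changes in polarizing cells. Between libraries labelled TH9 16h, the mitochondrial members stood higher in those labelled cGAMP while the nuclear members did not, without a call. Irf7 was at 1.51, 27.1 and 6.86 TPM in the control and 112, 2.25 and 115 TPM in the cGAMP libraries of this pair. Il9 was at 0 TPM in control replicate 3 and in cGAMP replicate 1, with Tbx21 at 38.8 and 27.6 TPM. The other libraries of the pair had Il9 above Tbx21. Subset and treatment labels of this pair are therefore in doubt. No member was called by limma and 0% of all genes were, while 1 of 66 had an unadjusted p under 0.05 beside 8.37% of all genes. All 8 mitochondrial members lay above 0 with a median log2 fold change of 1.06, 10 of 58 nuclear members did with a median of -0.36, and the median of all genes was -0.24. Under the 3 rescalings the nuclear median lay between -0.077 and -0.016, with 27 to 29 of 58 above 0, and all 8 mitochondrial members still lay above 0. In TPM as deposited, 5 mitochondrial members did not overlap between the groups, all higher (1.62% of all genes), and 17 nuclear members did not overlap, all lower (13.2% of all genes).

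mt-Nd6 (chrM:13552-14070, minus strand) had the smallest p. Libraries labelled control held 1427, 517 and 2071 TPM, and those labelled cGAMP 2610, 4975 and 4467 TPM. Every cGAMP library was above every control library, and the log2 fold change was 1.75 (SE 0.58), with an adjusted p of 0.362 by limma.

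mt-Nd5 held 1050, 796 and 1354 TPM in control and 1559, 2614 and 2372 TPM in cGAMP libraries (log2 fold change 1.03, SE 0.51, adjusted p = 0.608 by limma). mt-Nd4 and mt-Nd4l were likewise apart, with log2 fold changes of 1.11 and 1.08. mt-Nd1, mt-Nd2 and mt-Cytb overlapped, since control replicate 3 held 8429, 5339 and 2618 TPM of them, above the lowest cGAMP library. mt-Nd3 was apart as well (log2 fold change 1.44), but its sum with Gm28438 overlapped, at 2054, 929 and 4639 TPM in control and 2403, 5592 and 4509 TPM in cGAMP libraries.

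The ratio of mitochondrial to nuclear summed TPM within a library does not move with the share other genes take. It ranged from 1.79 (TH9 16h control replicate 2) to 6.95 (TH9 16h cGAMP replicate 2), with a median of 4.02. On the log2 scale it was 1.28 ± 0.48 (SD, n = 3) in TH9 16h control libraries and 2.61 ± 0.19 in TH9 16h cGAMP libraries, a difference of 1.33 or 2.51-fold. The control libraries stood at 1.21, 0.84 and 1.79 and the cGAMP libraries at 2.42, 2.80 and 2.61, with no overlap. The difference was 1.31 without mt-Nd3 and 1.26 without all mitochondrial members that share 50% or more of their words with copies. A ratio over members chosen by name is given here as a description, with no p. As the labels are in doubt, the difference cannot be read as a response of TH9 cells to cGAMP.

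Other values moved with that ratio. Lars2 took 33.8%, 16.7% and 20.9% of TPM in the TH9 16h cGAMP libraries and 0.812%, 3.04% and 6.18% in the TH9 16h control libraries, and its part in the result was not tested. TH1 48h control replicate 2 also had a high Lars2 share (16.6%) and a log2 ratio of 2.35, while TH9 48h control replicate 1 had a log2 ratio of 2.53 with Lars2 at 1.58%. The other protein-coding mitochondrial genes did not move alike. Of mt-Co1, mt-Co2, mt-Co3, mt-Atp6 and mt-Atp8, 2 of 5 lay above 0 with a median log2 fold change of -0.31, and 4 of the 5 share 63.9% to 100% of their words with copies (mt-Atp8 7.47%). The members made up 56.9%, 54.7% and 53.9% of the 13 mitochondrial messenger genes in the cGAMP libraries, against 29.2%, 38.9% and 49.1% in control.

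**Figure D3:**
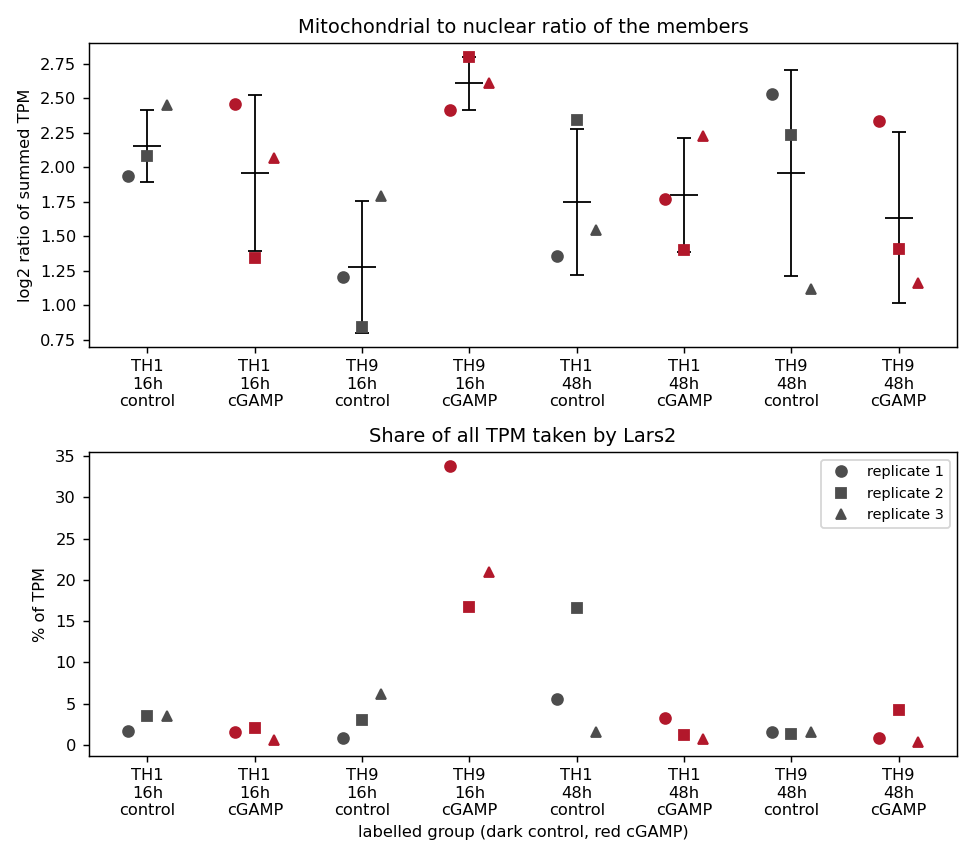
Log2 ratio of mitochondrial to nuclear summed TPM of the members (top, with the mean and SD of each labelled group of 3 in black) and the share of all TPM taken by Lars2 (bottom), in each of the 24 libraries; dark is control, red is cGAMP. TH9 16h is the one label pair whose ratios do not overlap, and its cGAMP libraries hold Lars2 at 16.7% to 33.8%.

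In the other 3 pairs the ratio overlapped. It was 2.16 ± 0.26 in control and 1.96 ± 0.57 in cGAMP libraries of TH1 16h, 1.75 ± 0.53 and 1.80 ± 0.41 at TH1 48h, and 1.96 ± 0.75 and 1.64 ± 0.62 at TH9 48h (SD, n = 3 each). The differences of -0.20, 0.051 and -0.32 stood beside a pooled SD within labels of 0.505. Averaged over all labels, the ratio differed by 0.21 between cGAMP and control, by -0.045 between TH9 and TH1 and by -0.21 between 48 h and 16 h.

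At TH1 16h both groups of members stood lower in libraries labelled cGAMP. Il9 lay above Tbx21 in control replicate 3 and in cGAMP replicate 1 of this pair. Irf7 was higher in control replicate 2 than in any cGAMP library of the pair. Subset and treatment labels are therefore in doubt here too, and the direction cannot be read as a response of TH1 cells to cGAMP. No member was called by limma, and 0.00636% of all genes were, which is 1 gene, while 3 of 66 members had an unadjusted p under 0.05 beside 8.16% of all genes. Only 5 of 66 members lay above 0. The median log2 fold change was -0.38 for mitochondrial and -0.36 for nuclear members while that of all genes was -0.034, and the distance of the nuclear members below all genes stayed between 0.28 and 0.34 under the 4 scalings. Without overlap, 4 nuclear members were lower (6.97% of all genes) and 1 was higher (5.85%).

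Ndufaf4 again had the smallest p. Control libraries held 59.9, 31.9 and 24.5 TPM and cGAMP libraries 17.7, 2.66 and 15.9 TPM. All cGAMP libraries lay below all control libraries, but the log2 fold change of -1.82 (SE 0.68) had an adjusted p of 0.596 by limma. Ndufa4l2 was the member that stood higher without overlap, at 0.934, 0.261 and 0.311 TPM in control and 2.06, 1.46 and 1.16 TPM in cGAMP libraries (log2 fold change 0.78, SE 0.33, adjusted p = 0.596 by limma), at levels near the minimum.

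At TH1 48h the side on which the members lay changed with the scaling. None was called by limma (1 of 66 at an unadjusted p under 0.05 beside 4.28% of all genes, 0% of all genes called), 18 of 66 lay above 0, and the medians were -0.25 for mitochondrial and -0.21 for nuclear members beside -0.12 for all genes. Without the 20 most abundant symbols these medians turned to 0.14, 0.17 and 0.14. Ndufaf4 was at 3.47, 8.08 and 1.09 TPM in control and at 8.12, 25.6 and 8.37 TPM in cGAMP libraries. The groups did not overlap (so in 2.2% of all genes, higher), by the narrow gap between 8.08 and 8.12 TPM, and the log2 fold change of 1.58 (SE 0.68) had an adjusted p of 0.953 by limma. Without overlap, 2 members were lower (6.33% of all genes). One of them, Ndufv3, an accessory subunit of the NADH-oxidizing arm, was at 154, 114 and 102 TPM in control and at 74.3, 61.4 and 17.1 TPM in cGAMP libraries (log2 fold change -1.48, SE 0.84, adjusted p = 0.953 by limma).

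At TH9 48h nearly every member stood higher in libraries labelled cGAMP, as did most other genes. None of the 66 was called by limma (6 at an unadjusted p under 0.05 beside 9.9% of all genes, 0% of all genes called). Of the members, 63 lay above 0, as did 85.4% of all tested genes, and the medians were 0.62 for mitochondrial and 0.83 for nuclear members beside 0.50 for all genes. No overlap was seen for 10 nuclear members, all higher (13.2% of all genes). Without the 20 most abundant symbols the medians were -0.28, -0.029 and -0.10, and with upper-quartile scaling -0.18, 0.072 and -0.022, so the direction changed with the scaling.

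Ndufa7, an accessory subunit, had the smallest p there. It was at 43.2, 14.0 and 41.1 TPM in control and at 58, 122 and 80.6 TPM in cGAMP libraries. The groups did not overlap, and the log2 fold change was 1.47 (SE 0.55, adjusted p = 0.487 by limma). Ndufb3, also accessory, had a log2 fold change of 1.22 (SE 0.51, adjusted p = 0.487). The low value of 14.0 TPM came from replicate 2, the library in which both member sums were lowest.

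**Figure D4:**
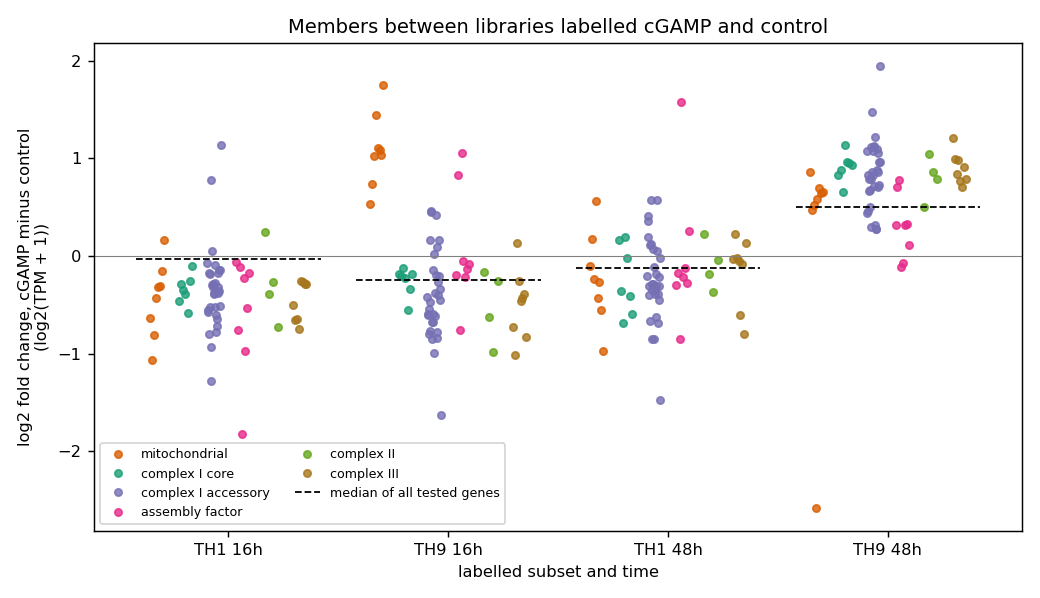
Log2 fold change, cGAMP minus control, on the log2(TPM + 1) scale, for each of the 66 members in the 4 label pairs, coloured by part of the chain; dashes give the median of all tested genes. No point is called. At TH9 16h the mitochondrial members lie above 0 (median 1.06) with the nuclear members mostly below (median -0.36), and at TH9 48h 63 of 66 lie above 0 beside a median of 0.50 over all genes, with mt-Nd3 at -2.58.

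Averaged over subsets and times, no member was called between cGAMP and control by limma (1 of 66 at an unadjusted p under 0.05 beside 2.05% of all genes, 0% of all genes called). The medians were 0.20 for mitochondrial members, -0.025 for nuclear members and 0.014 for all genes. Ndufa4l2 had the smallest p (mean 0.845 TPM in cGAMP and 0.301 TPM in control libraries, adjusted p = 1.00 by limma), followed by mt-Nd6 (1905 and 1264 TPM, log2 fold change 0.40, SE 0.29).

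Nor was a member called between TH9 and TH1, averaged over treatments and times (limma, 0 of 66 also at an unadjusted p under 0.05 beside 2.19% of all genes, 0% of all genes called). The median was 0.14 for mitochondrial and 0.13 for nuclear members and 0.079 for all genes. Ndufs1 and Ndufs7 had the smallest p, with means of 61 and 40.4 TPM in TH9 and 46.0 and 27.0 TPM in TH1 libraries (log2 fold changes 0.35, SE 0.21, and 0.43, SE 0.26).

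The cGAMP effect was not shown to differ between subsets or times for any member, in fits under the same doubtful labels. They cannot show that it was alike. By limma the difference between TH9 and TH1 was called for 0 of 66 members at 16 h (3 at an unadjusted p under 0.05 beside 10.6% of all genes, 0.00636% of all genes called) and at 48 h (4 unadjusted beside 12.1%, 0% called). The difference between 48 h and 16 h was called for 0 of 66 in TH1 (3 unadjusted beside 12%, 0% called) and in TH9 (12 unadjusted beside 17.3%, 0% called). At 16 h the effect was higher in TH9 than in TH1 for all 8 mitochondrial members, by a median of 1.51, beside -0.065 for nuclear members and -0.23 for all genes. In TH1 the smallest p was that of Ndufaf4, whose effect differed by 3.40 (SE 0.96, adjusted p = 0.225 by limma).

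Across the 24 libraries members varied together within each genome. The median correlation of log2(TPM + 1) between pairs was 0.93 among mitochondrial members (28 pairs), 0.84 among nuclear members (1653 pairs) and 0.69 between the 2 sets (464 pairs). The points share the library and its scaling. After each value was set against its library's median, the same figures were 0.84, 0.42 and 0.25. Within complexes, medians on that scale were 0.53 for complex III, 0.52 for the complex I core, 0.44 for accessory subunits, 0.40 for assembly factors and 0.29 for complex II.

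A few nuclear members went their own way. The correlation with the mean of the other nuclear members was -0.47 for Ndufa4l2, -0.27 for Ndufaf3 and -0.17 for Ndufv3. Ndufv3 ranged from 8.65 to 274 TPM. Set against the library median, the SD over libraries had a median of 0.35 in the core of complex I, 0.42 in accessory subunits, 0.44 in complex III, 0.47 in complex II, 0.58 in assembly factors and 0.69 in mitochondrial members, with 0.55 over all tested genes. The steadiest members were Uqcrc2 and Ndufa8, with SDs of 0.29 and 0.30. The map of members by library shows most mitochondrial rows moving together and Ndufaf4 and Ndufv3 apart from their neighbours. Correlation with the mean of the other mitochondrial members was lowest for mt-Nd3 (0.51) and mt-Nd6 (0.68).

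**Figure D5:**
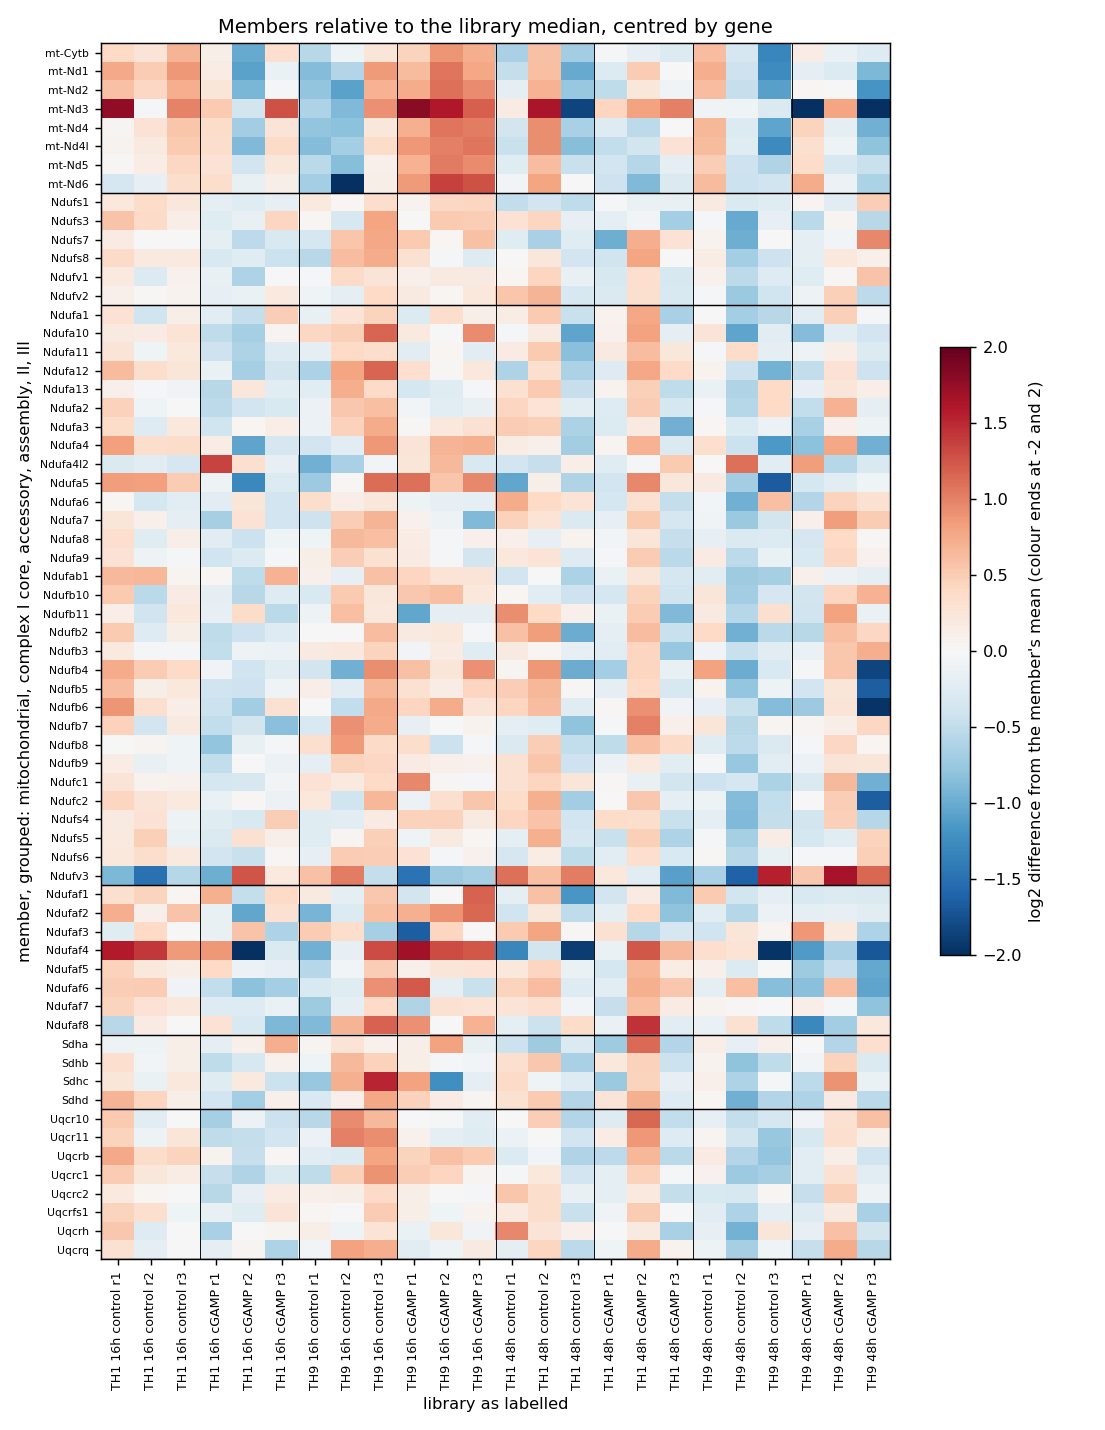
Of the 66 members, 65 (rows, grouped by part of the chain) in each of the 24 libraries (columns, by label), as log2(TPM + 1) set against the library median and centred on the member's mean; red is higher, blue is lower, and colours end at -2 and 2. Most mitochondrial rows change together, high in the 3 TH9 16h cGAMP libraries, while mt-Nd3, Ndufaf4 and Ndufv3 vary most.

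The genes outside the members whose pattern was most like theirs differed between the genomes. Over the 24 libraries, on the scale set against the library median, the mean of the nuclear members was most like Eif3i (r = 0.96), a subunit of a translation initiation factor, Atp5g3 (0.93) and Atp5a1 (0.92), subunits of ATP synthase, Uqcc2 (0.93), an assembly factor of complex III, and Rfc2 (0.91), a DNA clamp loader subunit. The mean of the mitochondrial members was most like Sumo2 (0.89), Prkaa1 (0.87), Man1a2 (0.86), Mcts1 (0.85) and Kpna4 (0.85). These are descriptions over libraries that share their scaling.

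Other genes of the pathway were also called lower. Between 48 h and 16 h, in TPM as deposited and beside 64.9% of all genes, limma called lower 17 of 17 assembly factors outside the naming rule, Cycs and Cyc1 (cytochrome c and cytochrome c1), 9 of 11 nuclear subunits of complex IV, 15 of 15 of complex V, 4 of 5 mitochondrial genes of both, 16 of 16 genes that express mitochondrial DNA, 7 of 7 regulators of nuclear respiratory genes and 13 of 13 citrate cycle enzymes. Their medians ran from -1.24 (expression of mitochondrial DNA) to -0.92 (nuclear complex IV). Lrpprc, which stabilizes mitochondrial messengers, had a log2 fold change of -1.68 (SE 0.22, adjusted p = 2.89e-05), and Gabpb1, a partner of GABPA, of -1.23 (SE 0.21, adjusted p = 9.20e-05).

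None of these lists had a call between cGAMP and control in any label pair. At TH9 16h, where the mitochondrial members stood higher, the 16 genes that express mitochondrial DNA had a median of 0.058 with 12 above 0. At TH1 16h none of the 16 lay above 0, with a median of -0.73 beside -0.034 for all genes, and Lrpprc had a log2 fold change of -1.29 (SE 0.45, adjusted p = 0.596 by limma). At TH9 48h the 15 nuclear ATP synthase subunits all lay above 0 with a median of 0.88, and the 13 citrate cycle enzymes likewise with 0.91, beside 0.50 for all genes.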

How the data were processed

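Libraries were prepared from 500 ng of RNA with a stranded kit after removal of ribosomal RNA, and read from 1 end over 76 bp. The authors removed adapters and poor bases (Trimmomatic) and estimated abundances by kallisto on mm10. Their own tests modelled counts. For these tools neither version nor transcript set is given in the sources used here. Deposited by the authors are TPM values, 1 per symbol and library, and each library sums to 1000000. The 14 symbols written as dates were kept.

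limma 3.58.1 (R 4.3.3) with an intensity trend was fitted to log2(TPM + 1), with a pseudocount of 1, a mean for each of 8 labels and genes at 1 TPM or more in at least 3 libraries, adjusted by Benjamini-Hochberg, two-sided. It was tested on simulated data. Fold changes on this scale understate changes of low genes. The study's count test could not be used on TPM. P-values measure the spread between libraries of a label. Groups are the deposited labels.

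The members and gene lists were chosen with earlier results of these data known. Named are all mitochondrial, core, Sdh and Uqcr members (except 1 core subunit, which is counted but not reported here), the 3 accessory subunits and 2 assembly factors with the highest and lowest means, and the 2 members with the smallest p per comparison. Others were named after their values were seen. Genes with the most similar pattern were ranked by Pearson's r. Shared sequence was counted in words of 31 bases over GENCODE vM21 transcripts. Promoters come from RefSeq (GRCm38.p6). Alternatives were pseudocounts of 0.1 and 10, no filter, a mean of 2 TPM, the compared libraries alone, a replicate block, 3 rescalings, a stricter threshold of 0.01 and fits that each lacked 1 library. The ratio without mt-Nd3 and without members mostly shared with copies was added after the data were seen. No library pair held identical values (highest r 0.97).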

Additional observations from a re-analysis of the deposited data

Results flagged for a closer look

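For 4 members values lay apart without overlap in opposite directions in 2 label pairs, which share no library. In TH1, 1 member lay lower in libraries labelled cGAMP at 16h and higher at 48h (1.52% of members, 0.852% of all tested genes). In TH9, 3 members did (4.55%, beside 2.66% of all tested genes). With the labels in doubt, no reversed response to cGAMP can be read from these values. For Ndufaf4 the log2 fold change, cGAMP minus control, was -1.82 among libraries labelled TH1 16h and 1.58 among those labelled TH1 48h. Among the TH9 libraries of 16h and of 48h the values were -0.61 and 1.22 for Ndufb3, -0.84 and 1.10 for Ndufb8 and -0.44 and 0.97 for Ndufs6, all accessory subunits of complex I. The limma test of the difference did not call any of them over all genes (difference 3.40, SE 0.96, adjusted p = 0.225 for Ndufaf4, and 1.83, 1.94 and 1.41 with adjusted p = 0.224, 0.202 and 0.286 for the others), and at TH9 the median of all genes went from -0.24 to 0.50 between the same times.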

How the results depend on the processing

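Of the counts of called members, 2 were lost, both between 48 h and 16 h, where 64 members became 0 (smallest adjusted p 0.0559) without the 20 most abundant symbols and 0 (0.112) with upper-quartile scaling, and 56 remained at an adjusted p under 0.01 (51.6% of all genes). Under these scalings Ndufaf4 stood at -1.16 and -0.97 and Ndufs1 at -0.19 and -0.042. From 0, 2 counts rose. At TH9 48h the compared libraries alone called 1 member (mt-Nd3, -2.58, adjusted p = 0.0413, 164 genes in all), with mt-Nd3 at 8.61e-07 TPM in 1 of those libraries. Without TH9 48h control replicate 3 the difference of the cGAMP effect between 48 h and 16 h in TH9 was called for 1 member (Ndufv3, 4.70, adjusted p = 0.0272, 571 genes in all).

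Leaving out each library kept 63 to 65 members called between 48 h and 16 h, beside 60.2% to 69.4% of all genes, and 0 in each comparison of treatment or subset. The log2 ratio difference at TH9 16h stayed between 1.11 and 1.58, while the other pairs gave -0.45 to 0.11 (TH1 16h), -0.16 to 0.35 (TH1 48h) and -0.75 to -0.039 (TH9 48h). Leaving out 1 library at a time cannot show how far wrong labels of several libraries shaped these differences. Libraries were not treated as paired by their number. Deviations from the labelled group means correlated over 0.1 in 2 of 12 same-numbered pairs. With the labels in doubt, this cannot show whether the experiments were paired, nor can a block on the same number. A fit with the replicate number as a block called 64 members between 48 h and 16 h (63.7% of all genes) and 0 in every other comparison. Depth is unknown, so no limit from counting can be given.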
